A study of Mus musculus with 2 samples.

Results

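CD4 T cells that held Gzmb transcripts were examined from the colons of mice that had graft-versus-host disease (GVHD), in which donor T cells attack the tissues of the recipient. Gzmb encodes granzyme B, a protease of cytotoxic granules. Cell barcodes with at least 500 genes and at most 10% mitochondrial UMIs (unique molecular identifiers, 1 per captured transcript) were kept. A barcode was put in the CD4 class when it had 1 or more Cd4 UMIs and none of Cd8a or Cd8b1. The CD4 cells with Gzmb were those of the class with at least 3 Gzmb UMIs, no Foxp3 UMI and at most 1 Mki67 UMI. Cells with detected Foxp3 and cells above that Mki67 limit, called cycling here, were thus left out. They numbered 314 of 1861 CD4 class cells, 16.9% (95% Clopper-Pearson interval 15.2% to 18.7%), and of 5333 kept barcodes. Of 416 CD4 class cells with 3 or more Gzmb UMIs, 22 had been removed for Foxp3 and another 80 for Mki67. Only 27 CD4 class cells had a Foxp3 UMI at all, and their median was 16 Gzmb UMIs. Regulatory cells whose Foxp3 was not detected could remain among the CD4 cells with Gzmb, and their part in the results was not tested. Because measured Gzmb, Cd4, Cd8a, Cd8b1, Foxp3 and Mki67 chose the cells, the values of these genes are a description and support nothing.

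Cytotoxic lymphocytes kill through granules. Perforin, the product of Prf1, opens the target's membrane, and granzymes then enter and cleave proteins that set off cell death. The main carriers of this machinery are CD8 T cells and natural killer (NK) cells, while CD4 T cells mostly help other cells through ligands such as CD40L and through cytokines. CD4 cells with granzymes are nonetheless known from chronic infection, tumours and the gut.

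The recipients were lethally irradiated Balb/c mice that had been given 5000000 C57BL/6 bone marrow cells and C57BL/6 splenocytes with 800000 alpha beta T cells. At day 21, donor T cells were sorted from the colon by the donor MHC molecule H2-Kb and TCR beta, and cells of 5 mice were pooled. The pool gave 1 gene expression library and 1 TCR library on the 10x 5′ platform. There was no untreated or ungrafted group, and the mice cannot be told apart in the pool, so every comparison is between cells of 1 sample and no test over samples is possible. The intervals given cover counting error only. The sample titles speak of CD4 cells, but 2391 kept barcodes fell in a CD8 class (no Cd4 UMI and 1 or more UMIs of Cd8a or Cd8b1).

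The CD4 cells with Gzmb were set beside 2 classes. The first was the 1048 CD4 class cells with no Gzmb, no Foxp3 and at most 1 Mki67 UMI. The second was the 1275 CD8 class cells picked by the same Gzmb, Foxp3 and Mki67 rule. Between them in Gzmb stood 201 CD4 cells with 1 or 2 Gzmb UMIs, and 378 CD8 cells without Gzmb served as the CD8 counterpart of the first comparison. Median depth was 4714 UMIs in the CD4 cells with Gzmb, 4382.5 in those without and 4718 in the CD8 cells with Gzmb. The median mitochondrial share was 1.96%, 2.22% and 2.06%. A gene's level is its summed UMIs per 10000 UMIs of the class, and 2 classes are compared by the ratio of levels with its 95% interval. Alternatives repeat a ratio with 1 choice changed, such as counting each clonotype once, leaving out barcodes with macrophage markers, or applying the rule to cells thinned to 2000 UMIs. A gene is called higher or lower when it had at least 50 UMIs over both classes and the levels differed at least 2-fold.

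The Gzmb values that chose the cells ran from 3 to 84 UMIs per cell, with a median of 7 and quartiles of 4 and 14. Exactly 3 UMIs were found in 50 cells and 20 or more in 48. Just outside the rule, 74 CD4 cells had exactly 2 Gzmb UMIs and 127 had exactly 1. CD8 cells with Gzmb had a median of 12, quartiles of 6 and 24, and a maximum of 216. Of the CD4 cells outside the Foxp3 and cycling classes, 20.1% (314 of 1563) met the rule, against 66.9% (1275 of 1906) of the CD8 cells outside those classes. None of 18 macrophage barcodes without T cell transcripts or TCR contigs (median 9302 UMIs) had a Gzmb UMI. With so few barcodes a share of up to 16.7% is allowed there (Clopper-Pearson upper limit 18.5%), and these barcodes were picked for lacking T cell transcripts.

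Gzmb stands at chr14:56258838-56262260 on the minus strand of the mouse genome (mm10), in a cluster with Gzmc (chr14:56231441-56234656), Gzmf (chr14:56205263-56211417), Gzmd (chr14:56129556-56132608) and Gzme (chr14:56117626-56120625). These genes are close relatives, so reads could be shared among them or discarded in counting, and their values are uncertain to that extent. Gzma (chr13:113093825-113100981) and Gzmk (chr13:113171608-113225908) are neighbours on another chromosome, and Prf1 lies at chr10:61297833-61304680. The span given for Gzmk, from GENCODE, runs past the RefSeq start used below. It takes in Esm1 (chr13:113209659-113218098), which lies on the plus strand. The 250 bases before the RefSeq start (GRCm38.p6) of the gene that defines the cells, of a granzyme that was higher in them and of perforin, which was low in them, are printed 5′ to 3′ on the gene's strand. Capitals mark matches, on either strand, to TGTGGT (the core letters of Runx sites), AGGTGT (of T-box sites) and TGANTCA (of AP-1 sites).
Gzmb, chr14:56262335-56262584, minus strand: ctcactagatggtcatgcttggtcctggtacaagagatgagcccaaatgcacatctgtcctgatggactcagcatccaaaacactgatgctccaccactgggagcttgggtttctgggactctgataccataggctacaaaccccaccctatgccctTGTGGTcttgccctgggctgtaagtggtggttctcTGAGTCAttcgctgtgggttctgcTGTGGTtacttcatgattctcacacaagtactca
Gzmk, chr13:113180966-113181215, minus strand: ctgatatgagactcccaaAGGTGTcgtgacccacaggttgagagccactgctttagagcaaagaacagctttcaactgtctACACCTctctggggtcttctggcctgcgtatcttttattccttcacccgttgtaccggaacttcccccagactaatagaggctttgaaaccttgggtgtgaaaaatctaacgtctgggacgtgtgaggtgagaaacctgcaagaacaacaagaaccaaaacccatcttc
Prf1, chr10:61297586-61297835, plus strand: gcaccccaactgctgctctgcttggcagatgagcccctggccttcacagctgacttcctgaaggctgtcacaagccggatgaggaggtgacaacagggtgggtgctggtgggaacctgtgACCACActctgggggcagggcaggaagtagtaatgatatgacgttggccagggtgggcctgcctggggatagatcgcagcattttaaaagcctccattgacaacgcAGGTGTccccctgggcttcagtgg

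The Gzmb window held 2 Runx letter matches, which began 93 and 34 bases before the start, and 1 AP-1 match between them. The Gzmk window held 2 T-box matches and the Prf1 window 1 Runx and 1 T-box match. A Runx match was present in 14.0% of 32851 mouse promoter windows of the same length, a T-box match in 11.8% and an AP-1 match in 6.75%. These matches describe letters and are not evidence of binding.

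Perforin transcripts were sparse in the CD4 cells with Gzmb. Prf1 had 38 UMIs in them, a level of 0.229 per 10000 UMIs (0.162 to 0.315), in 30 of the 314 cells (9.55%). CD8 cells with Gzmb reached a level of 2.09, so that the CD4 level was 0.110 times theirs (0.0772 to 0.151), and the alternatives gave ratios from 0.0737 to 0.145. After each cell was thinned to 2000 UMIs, a Prf1 UMI remained in 4.46% (2.46% to 7.37%) of CD4 cells with Gzmb, 2.58% of CD4 cells without and 29.1% of CD8 cells with Gzmb. CD8 cells without Gzmb stood at 17.2%, above both CD4 classes. None of the 18 macrophage barcodes had a Prf1 UMI.

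Prf1 was 2.25 times (1.44 to 3.47) the level in CD4 cells without Gzmb, but the ratio was 1.21 when each clonotype counted as 1 cell. It did not separate cells inside from those just outside the rule, since CD4 cells with 1 or 2 Gzmb UMIs had a level of 0.214. Within the CD4 cells with Gzmb, Prf1 was at 0.10 in cells with 3 or 4 Gzmb UMIs, 0.17 with 5 to 9, and 0.35 both with 10 to 19 and with 20 or more. These rest on 4 to 15 UMIs, and 1 cell held 50% of those at 20 or more, where the level without it was 0.177, and 50% of those at 3 or 4. Because transcripts of the pore-forming partner of granzymes were this sparse, the cells are called here CD4 cells with Gzmb and not cytotoxic CD4 cells.

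Among the other granzymes, 3 were higher than in CD4 cells without Gzmb. Together with Prf1 they are the 4 genes of a list of 10 granzyme and perforin genes, Gzmb aside, that had enough UMIs, and all 4 were higher, with a median log2 ratio of 1.89. Over all 7875 genes tested, 0.457% were higher, 1.9% were lower, and the median log2 ratio was -0.00. Gzmk, granzyme K, a trypsin-like granzyme, was at 2.47 per 10000 UMIs against 0.626, a ratio of 3.96 (3.41 to 4.59), and the alternatives gave 3.25 to 6.15. After thinning it was found in 23.9% of CD4 cells with Gzmb, 6.68% of those without and 54.0% of CD8 cells with Gzmb. None of the 18 macrophage barcodes had a UMI of Gzmk, Gzma or Gzmc.

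Gzma, granzyme A, was at 11.1 per 10000 UMIs against 2.83, a ratio of 3.93 (3.67 to 4.22). Single cells weighed heavily here, as 1 cell held 28.3% of the Gzma UMIs of the CD4 cells with Gzmb and another 21.4% of those of the cells without. Without these cells the ratio was 3.60, with each clonotype counted once it was 1.83, and with the rule applied to thinned cells it was 1.03. Gzmc, granzyme C, was at 0.676 against 0.193, a ratio of 3.51 (2.66 to 4.65), and 47.0% of the latter's UMIs came from 1 cell. The Gzmc ratio was 1.53 with each clonotype counted once and 6.46 without barcodes with macrophage markers.

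Gzmc was also the 1 of 7 measured granzyme and perforin genes that was higher in CD4 than in CD8 cells with Gzmb. Its level was 3.89 times (2.97 to 5.08) the CD8 level of 0.174. The other 6 (Gzma, Gzmk, Prf1, Gzmf, Gzmd and Gzme) were lower, beside 2.58% of all 8253 genes tested that were higher in that comparison and 3.47% that were lower. Gzma was 0.468 times (0.446 to 0.491) and Gzmk 0.482 times (0.434 to 0.534) the CD8 level. The alternatives gave 0.0967 to 0.733 for Gzma and 0.422 to 0.524 for Gzmk, so that both could miss the fold. Gzmf had 7 UMIs in 4 CD4 cells against a level of 0.746 in the CD8 cells, a ratio of 0.0566 (0.166 with 3 to 20 Gzmb UMIs). Gzmd had no UMI in the CD4 cells and came from 3 CD8 cells, 1 of which held 53.7% of it. Gzme had 2 UMIs in 1 CD4 cell and also came from 3 CD8 cells, with a ratio of 0.0650 that was 0.881 in cells of 3000 to 8000 UMIs. Gzmd, Gzme and Gzmf reached the minimum of 50 UMIs only through the CD8 cells.

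**Figure D1:**
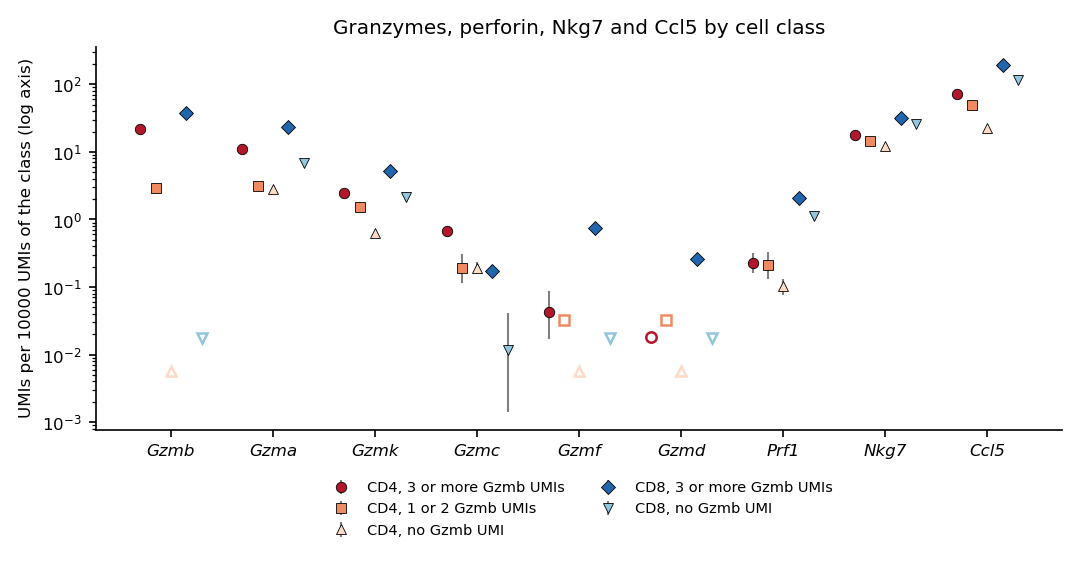
Level of 7 granzyme and perforin genes, Nkg7 and Ccl5 in UMIs per 10000 UMIs of the class (log axis) in 5 classes of cells of the 1 sample, with bars for the exact Poisson 95% interval and open markers at the level of 3 UMIs where a class had none. Prf1 of the CD4 cells with Gzmb (0.229) lies below both CD8 classes, and Gzmc (0.676) above both.

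Other granzymes were each detected in a minority of the cells. Of the 314 CD4 cells with Gzmb, 110 had a Gzmk UMI, 91 a Gzma UMI and 34 a Gzmc UMI, and 27 had both Gzma and Gzmk. None of Gzma, Gzmk, Gzmc and Prf1 was seen in 114 cells (36.3%). The amount of Gzmb did not order Gzmk, which was at 2.74 in cells with 3 or 4 Gzmb UMIs, 2.15 with 5 to 9, 2.88 with 10 to 19 and 2.08 with 20 or more. Cells with exactly 3 Gzmb UMIs had Gzmk at 2.50, beside 1.71 in cells with exactly 2 and 1.40 in cells with 1. Gzma did not step up at the edge of the rule. It was at 0.703 (0.416 to 1.11) in cells with exactly 3 Gzmb UMIs, below 3.18 with exactly 2 and 3.14 with exactly 1. Gzma was at 24.1 in the cells with 20 or more Gzmb UMIs, where 1 cell held 75.1% of it, and the level without that cell was 6.23.

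Genes of granule formation and release were nearly level between the CD4 classes. None of 15 measured genes of that list was past 2-fold in either direction, and their median log2 ratio was 0.06. Nkg7, a granule membrane protein needed for degranulation, was at 17.6 against 12.4 per 10000 UMIs, a ratio of 1.42 (1.36 to 1.49). CD8 cells with Gzmb had Nkg7 at 32.2, and after thinning it was seen in 99.1% of them, in 85.7% of CD4 cells with Gzmb and in 72.6% of those without. Serpinb9, the intracellular inhibitor that protects granzyme B-bearing cells, was 1.46 times the level without Gzmb and 0.806 times the CD8 level. None of the 4 measured granzyme inhibitors was past 2-fold in either comparison.

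Death ligands gave a mixed picture. Fasl, which kills through the receptor Fas without granules, was 1.70 times (1.51 to 1.91) the level in CD4 cells without Gzmb and 0.920 times (0.828 to 1.02) that in CD8 cells with Gzmb. After thinning, 42.4% of CD4 cells with Gzmb, 27.8% of those without and 46.6% of CD8 cells with Gzmb had a Fasl UMI. Fasl did not step up at the edge of the rule, at 2.68 per 10000 UMIs with exactly 2 Gzmb UMIs and 2.58 with exactly 3. Of 8 measured death ligands and receptors, none was higher than in CD4 cells without Gzmb and 2 were lower: Fas, at 0.478, and Tnf, at 0.465 (0.335 to 0.633). Fas is the receptor of FasL, and Tnf is a proinflammatory cytokine. With the rule applied to thinned cells neither passed the fold (0.853 and 0.796).

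Beyond the granzymes, Klrg1, Esm1, Il10, Apobec2, Ccl5 and Eomes were each over 2-fold higher than in CD4 cells without Gzmb. Killer receptors as a group did not follow Klrg1. Of 8 measured killer lectin receptor and NK genes, 1 was higher and 3 were lower, with a median log2 ratio of -0.48. Klrg1, an inhibitory receptor of terminal effector cells, had 77 UMIs in 314 cells against 39 in 1048, levels of 0.465 and 0.0751 and a ratio of 6.19 (4.16 to 9.35; alternatives 4.17 to 7.42). Ccl5, a chemokine stored by effector T cells, was at 72.6 against 22.6, a ratio of 3.22 (3.13 to 3.30; alternatives 2.71 to 3.89). A Ccl5 UMI was also found in 5 of the 18 macrophage barcodes (27.8%, median 9302 UMIs), against 72.9% and 54.7% of the thinned CD4 cells with and without Gzmb. Esm1, a secreted proteoglycan, was 3.64 times higher (2.84 to 4.67; 10.0 with each clonotype counted once) and Apobec2, a member of the cytidine deaminase family, 3.36 times (2.16 to 5.24). The lowest alternative for Apobec2 was 1.82. These genes did not all step up at the edge of the rule. From exactly 2 to exactly 3 Gzmb UMIs, Esm1 went from 0.589 to 0.585 and Eomes from 0.471 to 0.468. Klrg1 went from 0.295 to 0.507 and Ccl5 from 59.8 to 69.9. Il10 went from 0.147 to 0.742, where 1 cell held 57.9% of its UMIs. Except for Ccl5 these levels rest on 5 to 20 UMIs.

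Eomes, a T-box factor of cytotoxic lymphocytes, was at 0.561 against 0.175, a ratio of 3.20 (2.37 to 4.33; alternatives 2.56 to 4.17). It was the only one of 9 measured genes of cytotoxic fate past 2-fold upward, while Crtam, an adhesion receptor of cytotoxic cells, was lower at 0.155. Tbx21, the Th1 factor T-bet, had a ratio of 0.973 (0.793 to 1.19) and Runx3, a factor of the CD8 lineage, 1.21. Zbtb7b, the ThPOK factor that fixes the CD4 helper fate, was at 0.970. Ifng, the main Th1 cytokine, had a ratio of 0.893 (0.785 to 1.01). Of the 9 measured Th1 genes only Ccl5 was past the fold.

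Il10, an anti-inflammatory cytokine, was at 0.429 against 0.123 per 10000 UMIs, a ratio of 3.48 (2.45 to 4.95), and its receptor gene Il10ra had 2.05 (1.51 to 2.75). The Il10 ratio lay between 2.82 and 21.7 over the alternatives, and that of Il10ra went down to 1.11. Il10 was 3.28 times (2.36 to 4.53) the level of CD8 cells with Gzmb. Of the chemokine receptor and homing genes, Ccr2, the receptor for CCL2, had a ratio of 2.12 (1.87 to 2.39). Itgae, the integrin that binds epithelial E-cadherin, had 2.34, and the alternatives gave 1.57 to 4.01. Ccr9, the gut-homing receptor, stayed below the fold at 1.93.

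The genes that were lower included most of the Th17 list. Of 8 measured genes of that list 7 were lower and none higher. All 7 had under 50 UMIs in the CD4 cells with Gzmb and reached the minimum through the more numerous cells without. Il22, a cytokine that acts on gut epithelium, had 5 UMIs against 220, a ratio of 0.0712 (0.0229 to 0.169), and 24.5% of the 220 came from 1 cell. Il17a, the namesake cytokine, had 11 UMIs against 188, a ratio of 0.183 (0.0900 to 0.336). Il23r, the receptor for IL-23, was at 0.303 and Il1r1, a receptor for IL-1, at 0.311. Ccr6 had 1 UMI against 50, a ratio of 0.0627, and reached 0.882 when the rule was applied to thinned cells. Over the alternatives Il22 lay between 0.0308 and 0.183 and Il17a between 0.0526 and 0.237.

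Further cytokine and chemokine genes were lower too. Of 16 measured cytokines 5 were lower (Il22, Il17a, Csf2, Tnf and Ebi3) and 1, Il10, was higher. Csf2, the granulocyte-macrophage growth factor GM-CSF, was at 0.917 against 2.05 per 10000 UMIs, a ratio of 0.448 (0.375 to 0.531), and the alternatives gave 0.264 to 0.818, the latter with the rule applied to thinned cells. Tnfsf8, the CD30 ligand, was at 0.421 and Tnfsf11, the ligand RANKL, at 0.478, and single alternatives took them to 0.516 and 0.558. Ccr7, which guides cells to lymph nodes, had a ratio of 0.184 on 12 UMIs (0.412 with each clonotype counted once), and Tcf7, a factor of naive and memory cells, was at 0.527 and thus short of the fold. Ccr7 was the 1 lower gene of 6 measured in the naive or central memory list, whose median log2 ratio was 0.03. Of 8 measured chemokines, 5 were lower (Ccl1, Ccl3, Xcl1, Cxcl2 and Cxcl10), and Ccl5 was the 1 that was higher. Ccl1 and Ccl3 missed the fold in single alternatives, at 0.656 with the rule applied to thinned cells and at 0.537 in cells of 3000 to 8000 UMIs.

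Some of the lowest ratios moved with macrophage RNA, whose part in the other ratios was not tested beyond leaving out the barcodes named here. A list of 8 macrophage markers summed to 0.284 per 10000 UMIs in the CD4 cells with Gzmb, 1.76 in those without and 0.737 in CD8 cells with Gzmb. Of these markers 6 had a UMI in the CD4 cells with Gzmb, while the defining markers Csf1r and Adgre1 were at 0. Barcodes with at least 2 macrophage markers numbered 6, 30 and 30 in the 3 classes. H2-Ab1, an MHC class II gene, had a ratio of 0.0804, which was 0.437 without those barcodes, and Cd74, the class II chaperone, went from 0.148 to 0.338. Lyz2 went from 0.178 to 0.665 and Il1b from 0.0936 to 0.612. Cxcl2 was at 0.0309, but 63.8% of its UMIs in the cells without Gzmb came from 1 cell, and the ratio was 2.36 with each clonotype counted once. The NK markers Ncr1, Klra8 and Klra4 were at 0 in the CD4 cells with Gzmb, and also in those without. All 5 NK markers summed to 0.0785 per 10000 UMIs, against 0.216 in CD4 cells without Gzmb and 0.168 in CD8 cells with Gzmb. The gamma delta gene Trdc was at 0 in both classes with Gzmb. Its list partner Tcrg-C1 was at 0.133 in the CD4 and 0.0208 in the CD8 cells with Gzmb. The 2 genes summed to 0.214 in CD4 cells without Gzmb.

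The same contrast was made within the CD8 class, where 1.23% of 8279 genes tested were higher and 1.09% lower in cells with Gzmb. Over the 7650 genes measured in both contrasts, 33 were higher with Gzmb among CD4 cells and 60 among CD8 cells. They shared 14 genes, 42.4% of the CD4 genes and 23.3% of the CD8 genes. Lower with Gzmb were 99 genes among CD4 cells and 76 among CD8 cells. They shared 26 genes, 26.3% of the CD4 genes and 34.2% of the CD8 genes. Among genes whose intervals excluded equal levels in both contrasts, none was past the fold in opposite directions. So few of the 7650 genes were past the fold that hardly any would be opposite in any case, and this 0 does not measure agreement. Klrg1 was 4.48 times (2.92 to 7.24) higher among CD8 cells, Gzma 3.46, Gzmk 2.36 and Ccr2 2.78 times. Eomes was 1.05 times (0.868 to 1.28) the level without Gzmb in CD8 cells, beside 3.20 in CD4 cells, and the intervals of these ratios do not overlap. Cd27, a costimulatory receptor, was at 1.95 (1.63 to 2.32) in CD4 and 0.950 in CD8 cells. The difference between the contrasts was not tested.

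**Figure D2:**
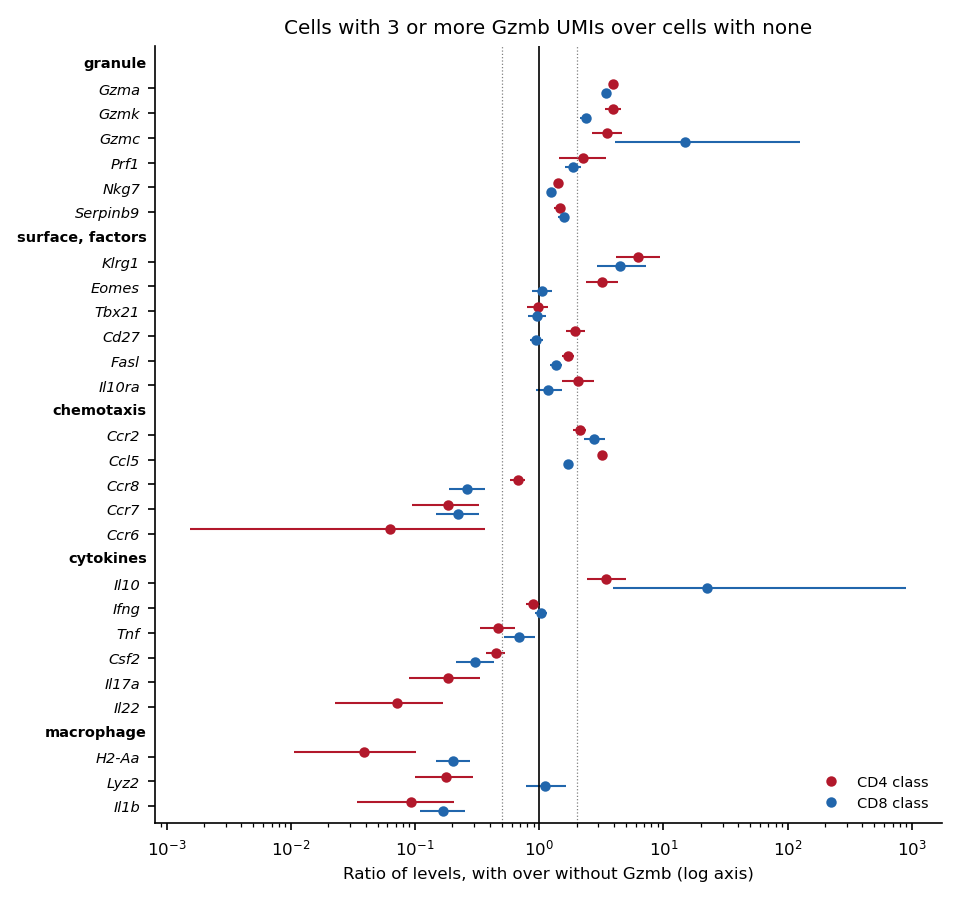
Ratio of levels with Gzmb over without Gzmb (log axis) for named genes in CD4 cells (red) and CD8 cells (blue) of the 1 sample, with 95% intervals for counting error, dotted lines at 2-fold and no marker for genes with under 50 UMIs. Klrg1, Gzmk and Gzma lie to the right in both classes, whereas Eomes does so only among CD4 cells (3.20 against 1.05).

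Against CD8 cells with the same Gzmb rule, helper genes set the CD4 cells apart. Of 8 helper genes listed, 5 had enough UMIs, Cd40lg and Tnfsf8 mainly through the CD4 cells; Cd40lg, Tnfsf8, Gata3 and Icos were higher and Tox was lower. Cd40lg, the ligand through which CD4 cells help B cells and dendritic cells, was at 1.98 per 10000 UMIs against 0.0580, a ratio of 34.2 (24.5 to 48.9). After thinning it was seen in 29.0% of CD4 cells with Gzmb, 30.2% of CD4 cells without and 0.784% of CD8 cells with Gzmb, and its ratio between the CD4 classes was 0.974 (0.858 to 1.10). Tnfrsf4, the costimulatory receptor OX40, was 7.08 times (6.56 to 7.65) and Icos 2.11 times (1.98 to 2.25) the CD8 level. Tnfsf8 was 16.7 times (12.6 to 22.4) and Tnfsf11 16.6 times (13.0 to 21.3) higher. With each clonotype counted once, Tnfrsf4 was at 4.13 and Tnfsf11 at 9.04, and Tox was within the fold, at 0.764, with the rule applied to thinned cells.

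Of 8 genes of the Th2 list, 3 had enough UMIs against CD8 cells, and Ccr8 and Il1rl1 had them mainly through the CD4 cells, where they were higher. Ccr8, a receptor of skin and type 2 cells, was 13.8 times (10.6 to 18.2) the CD8 level, Il1rl1, the IL-33 receptor ST2, 15.8 times, and Gata3, the factor of this fate, 2.51 times (2.03 to 3.09). With each clonotype counted once, the ratio was 4.96 for Ccr8 and 7.86 for Il1rl1. None of the 5 genes of this list measured against CD4 cells without Gzmb was past 2-fold. Ccr4, which also had its UMIs mainly in the CD4 cells, had a ratio of 28.4 (12.8 to 74.4) to the CD8 level. The alternatives gave 10.0 to 122, and its ratio to CD4 cells without Gzmb was 0.826. Csf2 was 8.58 times (6.44 to 11.5) the CD8 level, 3.27 times with each clonotype counted once. Cxcl3 had the highest ratio, 116, but its 57 UMIs came from 3 CD4 cells.

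Most killer receptors measured were lower. Of 11 measured killer lectin receptor and NK genes 9 were lower and none higher, some of which, such as Klrc2 and Cd244, reached the minimum only through the CD8 cells. Of 6 measured CD8 lineage genes 4 were lower (Crtam, Ly6c2, Xcl1 and Klrd1, the last also counted among the killer receptors), while Runx3 and Itgae stayed within the fold at 1.15 and 1.32. Klrc1, the inhibitory receptor NKG2A, was 0.219 times (0.178 to 0.267), its partner Klrd1 0.234 times (0.181 to 0.297) and Klrk1, the activating receptor NKG2D, 0.307 times the CD8 level. Tyrobp and Fcer1g, adaptors that macrophages also express, are among the 9, at 0.339 and 0.320, and went as high as 1.67 and 0.540 in single alternatives. Crtam had 5 UMIs and a ratio of 0.0769. Ly6c2, a surface antigen of effector and memory CD8 cells, was at 0.459 against 5.99 per 10000 UMIs, a ratio of 0.0766 (0.0602 to 0.0961; 0.161 with each clonotype counted once), and 7 of the 18 macrophage barcodes also had a UMI of it. Klrg1 was an exception among the killer receptors, at 0.812 (0.628 to 1.04).

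The chemokines Ccl5 and Ccl4 were lower than in CD8 cells with Gzmb, at 0.370 (0.363 to 0.377) and 0.398. Pdcd1, the inhibitory receptor PD-1, was at 0.310 (0.276 to 0.347; 0.181 with each clonotype counted once) and Lag3 at 0.468 (0.595 with the rule applied to thinned cells), and 4 of 10 genes of the inhibitory list were lower (with Cd160 and Tox) and 1, Cd200r1, was higher. Genes that stayed within 2-fold included Ifng (0.805), Tnf (1.05), Tbx21 (0.782), Eomes (0.683) and Ccr2 (1.41). None of 14 glycolysis genes passed the fold in either comparison. Of 14 genes that respond to tissue dissociation, 1, Atf3, was higher than in CD8 cells (4.94, and 1.88 with each clonotype counted once) and none passed the fold between the CD4 classes.

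**Figure D3:**
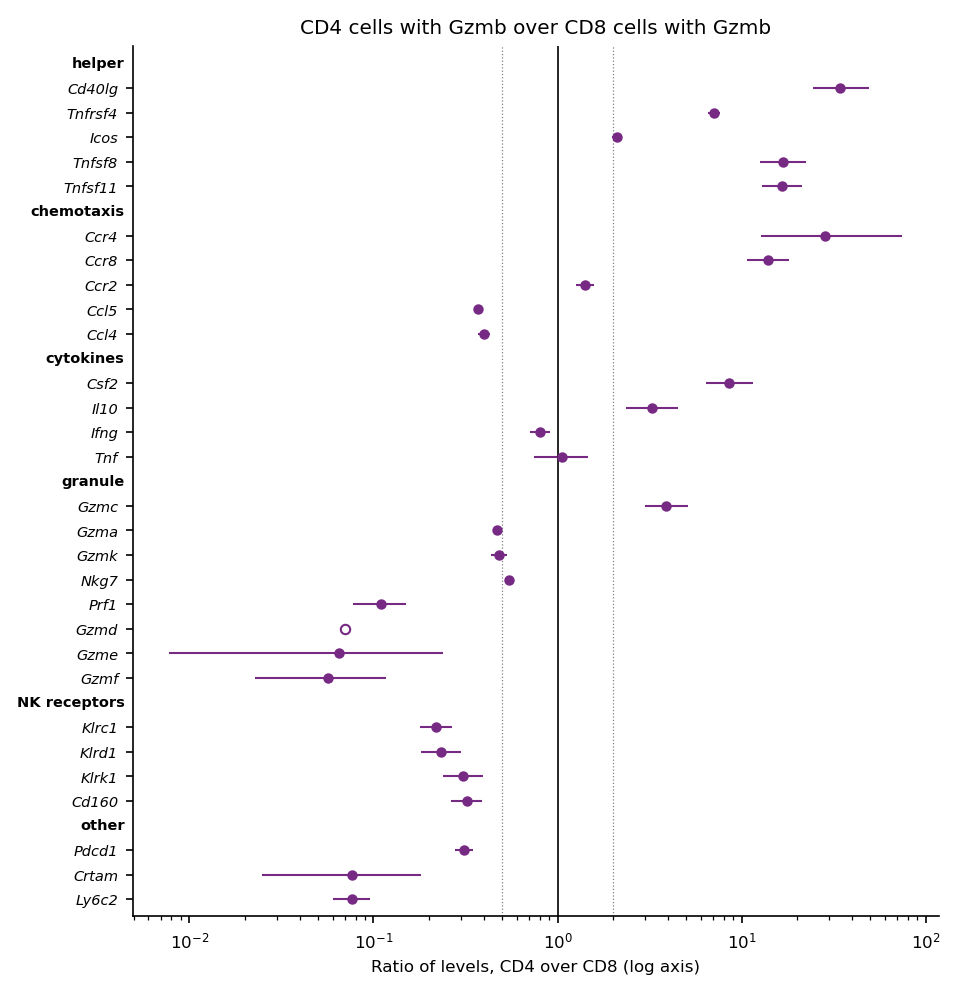
Ratio of the level in CD4 cells with Gzmb over that in CD8 cells with Gzmb (log axis) for named genes, with 95% intervals for counting error, dotted lines at 2-fold and an open circle for Gzmd, an upper bound with 0 UMIs in CD4 cells. Cd40lg (34.2), Tnfsf8 (16.7) and Ccr8 (13.8) lie far to the right, and Prf1 (0.110) and Ly6c2 (0.0766) far to the left.

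The CD4 cells with Gzmb were not uniform. Splitting them by Gzmk, a division chosen after the values were seen, gave 110 cells with and 204 without a Gzmk UMI. Eomes went with Gzmk, since 45 of the 49 cells with an Eomes UMI had one, and the level of Eomes was 26.8 times higher with Gzmk (87 against 6 UMIs). Ccl4 was 12.3, Il10 11.3, Esm1 10.8, Ccl5 5.60 and Cd27 5.12 times higher. Esm1 lies within the annotated span of Gzmk, on the other strand, and the effect of this overlap on the counts was not tested. Lower with Gzmk were Csf2, with 3 UMIs against 149 and a ratio of 0.0373, Tnfsf11 (0.231), Il1r2 (0.211), Gzmc (0.222) and Cd40lg (0.365). Gzma, also a trypsin-like granzyme, had a ratio of 0.317, and single cells held 49.4% and 33.2% of its UMIs in these subsets.

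Counted in thinned cells, 75 had Gzmk and 239 did not, with median depths of 4429 and 4772 UMIs before thinning. Eomes was seen in 30.7% and 3.35%, Il10 in 17.3% and 3.35%, and Klrg1 in 16.0% and 4.18%. Prf1 was seen in 12% (5.64% to 21.6%) of those with Gzmk and 2.09% (0.684% to 4.81%) of those without. Csf2 was seen in none of the cells with Gzmk and 12.6% of those without. Tbx21 hardly differed, at 14.7% and 15.1%, and Ifng was at 16.0% and 22.6%. The tie of Eomes to Gzmk was not limited to cells with Gzmb: among CD4 cells without Gzmb it was seen in 31.4% and 1.53%. In CD8 cells with Gzmb the shares were 15.7% and 10.2%.

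**Figure D4:**
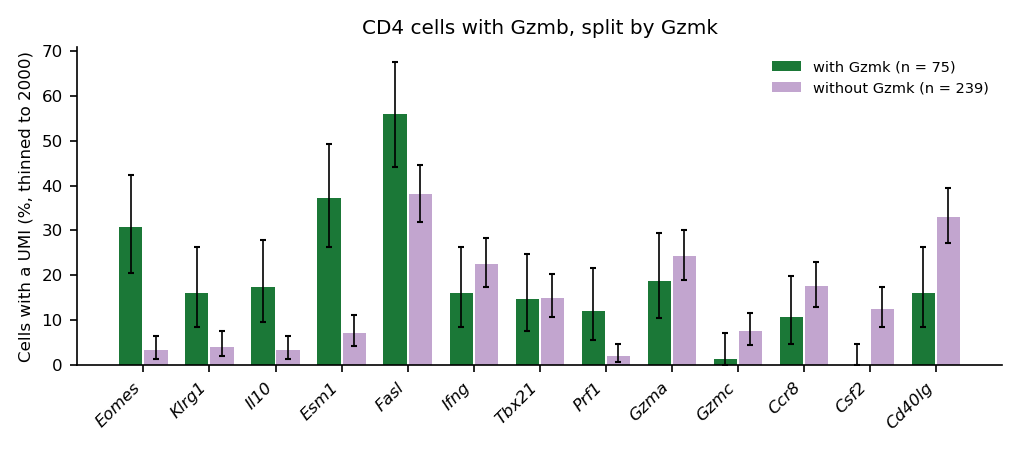
Share of thinned CD4 cells with Gzmb that had at least 1 UMI of each gene (percent), for the 75 cells with and the 239 without a Gzmk UMI, with Clopper-Pearson 95% intervals. Eomes (30.7% against 3.35%) is higher with Gzmk and Csf2 (0% against 12.6%) is higher without, and Tbx21 is nearly equal.

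The TCR, which the rule did not use, tied the cells to clones of CD4 class cells. Cells with 1 productive beta chain and 1 or more productive alpha chains were assigned a clonotype, defined by V segment, J segment and CDR3 nucleotides of every productive chain. Of the 314 CD4 cells with Gzmb, 134 had a clonotype, in 77 clonotypes of which the largest had 9 such cells. Of the 94 whose clonotype held another CD4 or CD8 class cell, none was in a clonotype with mostly CD8 class cells, which allows a share of up to 3.19% (Clopper-Pearson upper limit 3.85%). Of the 134, 32 (23.9%, 16.9% to 32.0%) were in 6 clonotypes that held a CD8 class cell, at most 1 each, and the share was 20.04% (16.6% to 23.9%) for CD4 cells without Gzmb. Among clonotypes with at least 5 cells of their majority class, 35 with a CD4 majority held 491 CD4 and 7 CD8 class cells, and 41 with a CD8 majority held 867 CD8 and 0 CD4 class cells. Of the 314 barcodes 7 had at least 2 productive beta chains, a sign of doublets, and no doublet caller was run.

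Expanded clonotypes held most typed cells of each class. Of the typed CD4 cells with Gzmb, 70.9% (62.4% to 78.4%) were in clonotypes of 2 or more cells, beside 77.3% (73.3% to 80.9%) of CD4 cells without and 83.2% (80.2% to 86.0%) of CD8 cells with Gzmb. Drawn in pairs, 1.83% of CD4 cells with Gzmb shared a clonotype, against 1.30% and 6.87%. Of the beta segments, TRBV5 was the most common among CD4 cells with Gzmb, in 20.1% of cells and 15 of the 77 clonotypes. TRBV5 was found in 12% of CD4 cells without Gzmb and in 15 of their 204 clonotypes. CD8 cells with Gzmb were led by TRBV13-1 at 33.1% of cells, but it was in 24 of their 202 clonotypes (11.9%). The largest clonotype of that class held 154 of its 673 typed cells, so its share by cells depends on large clones.

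Many clonotypes spanned the Gzmb threshold. Of the 134 typed cells, 91 (67.9%, 59.3% to 75.7%) shared their clonotype with a CD4 cell without Gzmb, in 34 clonotypes. For CD4 cells with 1 or 2 Gzmb UMIs the share was 67.5% (56 of 83). All 13 clonotypes with at least 10 non-cycling, Foxp3-negative CD4 cells had a cell with Gzmb, in shares from 6.25% to 36% with a median of 19.4%. Pooled, 55 of their 270 cells (20.4%) had at least 3 Gzmb UMIs, near the 19.1% (134 of 701) of all typed cells of this kind. The CDR3 sequences of the 3 clones with the most such cells are printed because each was found on both sides of the threshold. Capitals mark the first and last codon of the CDR3.
Clone A beta, TRBV5: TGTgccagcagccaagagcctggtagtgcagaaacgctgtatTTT
Clone A alpha, TRAV7-3: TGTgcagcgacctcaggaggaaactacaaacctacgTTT
Clone B beta, TRBV4: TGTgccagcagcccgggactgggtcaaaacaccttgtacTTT
Clone B alpha, TRAV13D-2: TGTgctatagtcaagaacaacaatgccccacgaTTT
Clone C beta, TRBV17: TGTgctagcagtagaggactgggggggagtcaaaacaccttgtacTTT
Clone C alpha, TRAV4D-4: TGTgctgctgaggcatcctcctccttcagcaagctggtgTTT

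Clone A had 9 cells with at least 3 Gzmb UMIs, 2 with 1 or 2 and 14 with none, and Gzmb in the 9 ran from 3 to 84 UMIs with a median of 14. Clone B had 8, 7 and 17 such cells, and clone C 7, 5 and 24. Each of the 3 clones also held 1 CD8 class cell. The same receptor was thus seen in cells with and without detected Gzmb in all 3. At these depths a cell without a Gzmb UMI need not lack the transcript.

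**Figure D5:**
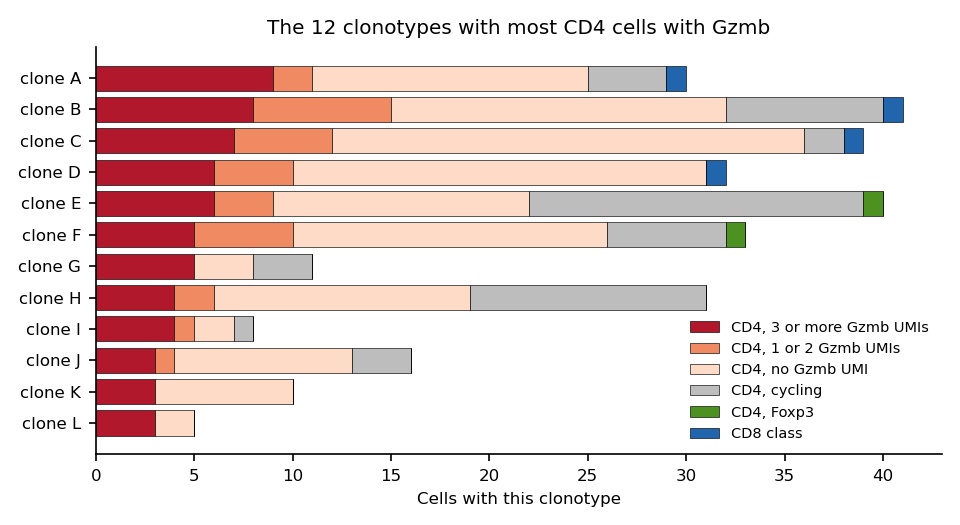
Number of typed cells in the 12 clonotypes with most CD4 cells with Gzmb, as bars from 0 stacked by class: CD4 cells with 3 or more, 1 or 2 and no Gzmb UMIs, cycling and Foxp3-positive CD4 cells, and CD8 class cells (cells of neither or both lineage classes are not drawn). Every one of the 12, from clone A (9, 2 and 14 CD4 cells by Gzmb) on, holds cells with and without Gzmb.

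Within the 34 shared clonotypes, 91 cells with and 222 without Gzmb could be compared on the same receptors. Gzmk was at 4.04 against 0.763 per 10000 UMIs, a ratio of 5.29 (4.06 to 6.96), higher in 15 clonotypes, lower in 3 and tied in 16. Klrg1 had 36 against 3 UMIs, a ratio of 26.5 (8.36 to 134), and was higher in 10 clonotypes and lower in none. Ccl5 had a ratio of 3.92 (3.75 to 4.11; higher in 23, lower in 9). Prf1 had 14 against 8 UMIs, a ratio of 3.86 (1.51 to 10.6), and was higher in 7 and lower in 3. Eomes had a summed ratio of 2.44 (1.53 to 3.92) but was higher in 6 clonotypes and lower in 6. Tnfsf8, at 0.336 (0.243 to 0.456), was lower in 23 and higher in 5, and Csf2, at 0.145 (0.0611 to 0.294), was lower in 7 and higher in 2. Klrg1 and Prf1 were tied in 24 of the 34 clonotypes, Csf2 in 25, Eomes in 22, Tnfsf8 in 6 and Ccl5 in 2. These clonotypes held fewer cells with Gzmb than without, so a sparse gene was more often at 0 on the side with Gzmb. The counts of clonotypes thus lean towards lower and are a description only.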

How the data were processed

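Gene UMI counts per barcode and, for each TCR contig, read and UMI counts were deposited by the authors. Per the submitters' processing notes they were made with Cell Ranger on mm10; its version and TCR reference are not given in the sources used here. Because the RNA and TCR libraries came from the same cells, they were joined by barcode, and 4682 of 5333 kept barcodes, with 2549 to 39138 UMIs each, had a contig. From the counts, class sums per 10000 UMIs with exact Poisson intervals, ratios with exact conditional binomial intervals and shares with Clopper-Pearson intervals (95%) were computed in Python 3.11.15 with numpy 2.4.6 and scipy 1.17.1, and drawn with matplotlib 3.10.9. Shares across depths used cells thinned to 2000 UMIs. A class at 0 was set to 3 UMIs for a bound. With 1 pooled sample no test was run. The ratio code was tested on simulated data. The cells and gene lists were chosen with earlier results of these data known.

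Named genes were, in each comparison and direction, the 12 whose interval bound nearest 1 was farthest from it, and up to 4 per list. TCR, immunoglobulin, mitochondrial, ribosomal, predicted and rule genes were left out. The markers Gzmb, Cd4 and Prf1 were also named. Other list genes, such as Tbx21 and Ifng, and genes of the Gzmk division were named for their role after their values were seen. Promoter sequences are from RefSeq and gene positions from GENCODE M21, in which all 156 named genes were found. Some results are not reported here.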

Additional observations from a re-analysis of the deposited data

How the results depend on the processing

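Each count and named ratio was recomputed with other Gzmb, depth, mitochondrial and lineage settings, without doublet-like or macrophage barcodes, without the largest clonotype or the cell with most UMIs, and with clonotypes weighted equally. The 36 genes higher than in CD4 cells without Gzmb became 61 with at least 10 Gzmb UMIs, 65 with the rule on thinned cells, 71 with each clonotype as 1 cell and 111 with a minimum of 20 UMIs. These are partly other genes: of the 36, 22, 15 and 11 were past the fold in the first 3 of these, where 25, 20 and 18 had enough UMIs. The 150 lower genes became 316, 244 and 396 under the first, second and last of these settings, and 107 and 61 of the 150 were past the fold in the first and second, where 131 and 93 had enough UMIs. Against CD8 cells, 213 higher genes became 368 with the 20 UMI minimum, and 286 lower genes 604 with the thinned rule and 550 with that minimum. The Prf1 share of 4.46% was 2.29% with the thinned rule, 1.91% at 1000 UMIs, 8.08% at 3000 and 9.55% without thinning. The share in clonotypes with a CD8 cell, 23.9%, was 38.6% with the thinned rule and 36.8% by beta chain alone, and the share in expanded clonotypes, 70.9%, was 79.1% by beta chain alone.

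Against CD8 cells the log2 ratio changed sign with the thinned rule for H2-Aa (0.85), Lyz2 (0.68) and Tyrobp (0.74), without macrophage barcodes for H2-Aa (0.26) and H2-Ab1 (0.62), and with clonotypes weighted equally for Areg (-0.016), Ccl1 (-0.31) and Csf1 (-0.15). Against CD4 cells without Gzmb it did for Fcer1g (0.61, without macrophage barcodes), Cxcl2 (1.24) and Ifit1 (0.10, both with clonotypes weighted equally). The cause was not tested. Of 51 named genes past the fold against CD4 cells without Gzmb, 27 were past it in every alternative, and of 74 against CD8 cells, 46. No paired analysis was possible because there is 1 sample, and leaving out a replicate was not possible for the same reason. Sparse counts limit genes with few UMIs, such as Prf1 and Ccr6.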
